A study of Danio rerio with 24 samples.

Results

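The genes described here are 50 genes of DNA replication and nucleotide supply in zebrafish larvae exposed to perfluorohexane sulfonate (PFHxS). They were chosen by name from a list of 50 symbols. Of these, 49 matched the gene names of the deposited expression tables. The symbol rrm2 matched 2 genes, on chromosomes 19 and 20, and ung matched none, which left 50 genes of the 32520 in each table. They lie on 23 chromosomes and fall into 7 groups by role, from origin licensing to nucleotide synthesis. Members were matched by name alone, from a list drawn up with earlier results of these data known.

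A cell copies its DNA once per division, in S phase. The origin recognition complex, Cdc6 and Cdt1 load the ring-shaped Mcm helicase onto DNA, and Cdc45 and the GINS complex then turn it into a moving helicase. Polymerases, held to the template by the sliding clamp PCNA, copy the opened strands with deoxynucleotides made by ribonucleotide reductase, thymidylate synthase and salvage kinases. Transcripts of these genes are most abundant in dividing cells and fall when cells leave the cycle, and in larvae at the end of embryogenesis dividing cells persist in places such as the retinal margin, brain ventricular zones, gut and thymus.

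RNA was sequenced from whole wild-type zebrafish (Danio rerio) collected at 120 hours post fertilisation (hpf). PFHxS, a persistent fluorinated surfactant, was given from 0.75 hpf. The 6 groups of 4 libraries were 25 µM, 0.0025 µM and vehicle control in constant darkness (24 h dark), and 25 µM, 0.0025 µM and vehicle control on a light cycle (14 h light, 10 h dark). All 6 groups, the controls included, carried 0.1% dimethyl sulfoxide (DMSO). The number of larvae per library is not given in the labels. The series asks whether the photoperiod changes the developmental effects of PFHxS. The dark and the cycle libraries carry names of different library series and were deposited in separate tables, so photoperiod and library series cannot be told apart where dark groups are set against cycle groups.

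Levels are FPKM, fragments per kilobase of gene, as deposited, scaled by 1 factor per library. This factor was not proportional to the total fragments of the library. In dark libraries it matched a median-of-ratios factor, which is set from the median over genes of their ratios between libraries. In cycle libraries it lay close to such a factor. The dark libraries held 8.44 to 14.5 M fragments and the cycle libraries 10.1 to 18.5 M. Mitochondrially encoded genes took 4.88% to 5.99% of the fragments. Differences are log2 fold changes on log2(FPKM + 0.1), which understates the change of genes near 0, tested with limma over all genes that reached 0.5 FPKM in 4 or more of the fitted libraries. A gene scarce in 1 group could pass this filter through the groups where it was high. A gene was called at a Benjamini-Hochberg adjusted p below 0.05. The labels do not say that the libraries of a group came from separate clutches, so p-values reflect the spread among these samples alone, and that spread may be technical. All members are read from the same libraries, so a count of members with 1 sign is not a count of independent samples. The RNA came from whole larvae, so fewer cells of a dividing type and less RNA per cell cannot be told apart.

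At 25 µM in constant darkness 44 of the 47 members that passed the filter fell, none rose, and the 3 that missed the threshold (cdt1, orc5 and rfc1) also had values below 0. The median log2 fold change of the 47 was −1.07, against −0.01 over all 19058 genes tested. Of all genes tested, 9.6% were lower and 12.2% were higher. In 40 members all 4 libraries at 25 µM lay below all 4 dark controls, which was so for 11.8% of all genes tested. Of the 44, 28 were tested and lower under each alternative and with each library left out. The filter left out orc1, ccne1 and rfc3, whose group means were at most 0.371 FPKM. Without a filter 42 of 50 members were lower. The median member kept 46.2% of its mean FPKM in dark controls. The range ran from 19.9% for dck, the deoxycytidine kinase of the salvage pathway, to 74.9% for rfc1, the large subunit of the clamp loader.

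**Figure D1:**
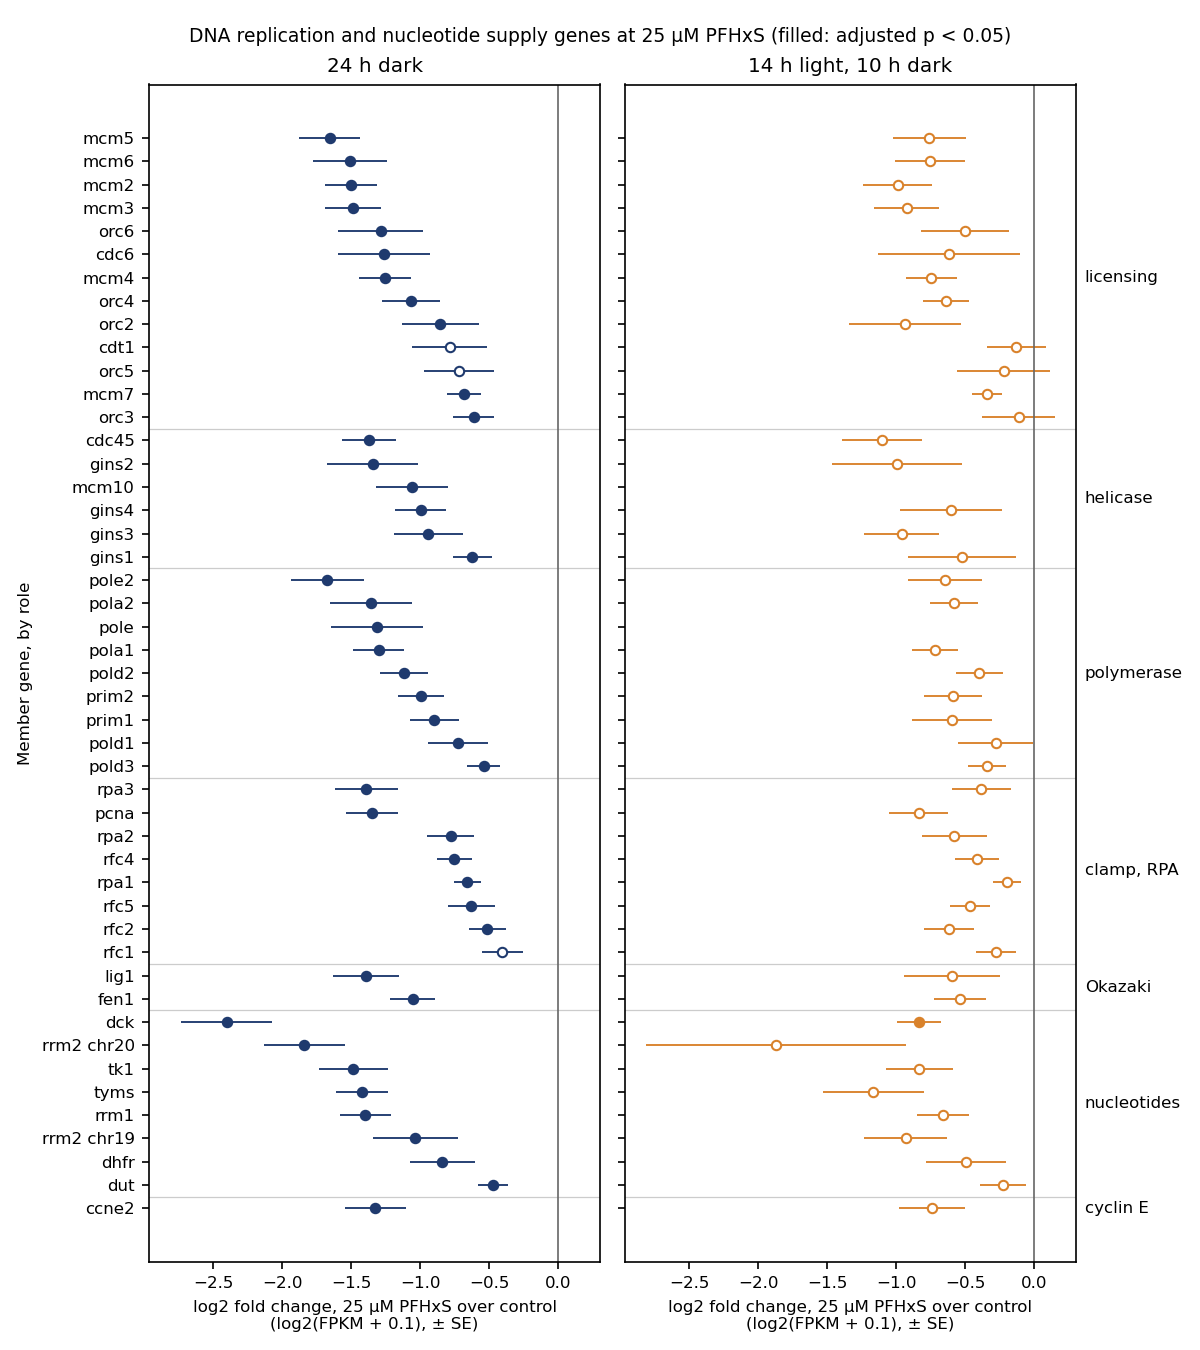
Log2 fold change (x axis, ± SE) at 25 µM PFHxS over control of each member that passed the filter, ordered by role (y axis), in constant darkness (left) and under the cycle of 14 h light and 10 h dark (right). Filled points have an adjusted p below 0.05: 44 of 47 members in darkness and 1 of 45 under the cycle, and all points lie below 0.

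Of the 13 licensing members tested in darkness 11 fell, with a median log2 fold change of −1.26. The origin recognition complex marks the start sites of replication, and its subunits orc6 (−1.29 ± 0.31, adjusted p = 0.0101), orc4 (−1.07 ± 0.21, adjusted p = 0.00291), orc2 (−0.86 ± 0.28, adjusted p = 0.0446) and orc3 (−0.61 ± 0.15, adjusted p = 0.0109) fell, each value being a log2 fold change ± SE from limma. The loading factor cdc6 fell by the same test (−1.26 ± 0.33, adjusted p = 0.0158), while its partner cdt1 did not pass (−0.79 ± 0.27, adjusted p = 0.0557), nor did orc5 (−0.72 ± 0.25, adjusted p = 0.0617). The call of orc2 was lost without a filter, with only the 2 groups compared, with the replicate block and with all 24 libraries in 1 fit. It was also lost without library 2, 3 or 4 at 25 µM and without any 1 of the dark controls. With the alternative minimum of a mean of 50 fragments orc2, orc6 and cdc6 dropped out. The 6 subunits of the Mcm helicase ring, mcm2 to mcm7, all fell.

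The ring subunit mcm2 (chromosome 22, 5632029 to 5655680, on the minus strand) had 7.81, 4.21, 3.72 and 6.12 FPKM in the 4 libraries at 25 µM in darkness, against 14.1, 14.9, 16.8 and 14.4 FPKM in dark controls. All 4 exposed libraries were below every control, and the log2 fold change was −1.50 ± 0.19 (SE, limma adjusted p = 0.000144). Its partner mcm4 (chromosome 24, 35536664 to 35561672) had 15.9, 7.42, 8.197 and 12.1 FPKM at 25 µM in darkness, against 23.7, 26.99, 25.4 and 23.96 FPKM in dark controls, again without overlap (log2 fold change −1.26 ± 0.19, adjusted p = 0.000557). The most abundant subunit, mcm7 (chromosome 14, 94603 to 102022), had 33.7, 23.2, 34.1 and 32.8 FPKM at 25 µM in darkness, against 45.1, 50.9, 50.1 and 50.5 FPKM in dark controls. It fell less than the other 5 subunits in log2 terms (−0.68 ± 0.12, adjusted p = 0.00162), which ranged from −1.65 for mcm5 to −1.26 for mcm4; the difference between subunits was not tested. The region of mcm7 also holds 3 miRNA genes on the same strand (dre-mir-19d, dre-mir-25 and dre-mir-93), and their part in its counts was not tested.

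Summed over mcm2 to mcm7, the ring had 71.9 ± 19.3 FPKM at 25 µM in darkness, 51.3 in the lowest and 94.4 in the highest library, and 157.1 ± 6.97 FPKM in dark controls (SD, n = 4 each), 147.4 to 162.3. Although the ring holds 1 copy of each subunit, their FPKM values were not equal. In each of the 6 groups mcm7 had the highest mean FPKM of the 6 subunits and mcm2 the lowest. The ratio between them was 5.66 at 25 µM in darkness and 3.27 in dark controls. FPKM divides by the listed gene length, 5678 bases for mcm2 and 2332 for mcm7, so the low rank of mcm2 depends on that length. In mean fragments over the 24 libraries mcm2 (473) stood below mcm7 (890) but above mcm4 (442), mcm6 (427), mcm3 (357) and mcm5 (357).

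The helicase activation factors all fell in darkness (6 of 6, median −1.03). The helicase cofactor cdc45 (chromosome 8, 4734005 to 4760723) had 1.89, 1.29, 1.14 and 1.67 FPKM at 25 µM in darkness, against 4.68, 3.69, 3.52 and 4.02 FPKM in dark controls. The groups did not overlap (log2 fold change −1.37 ± 0.20, adjusted p = 0.000385). The GINS subunit gins1 (chromosome 13, 7164345 to 7170351) had 4.69, 3.53, 4.23 and 4.801 FPKM at 25 µM in darkness, against 7.76, 7.11, 6.79 and 5.21 FPKM in dark controls, a smaller fall that also left no overlap (−0.62 ± 0.14, adjusted p = 0.00671). With all 24 libraries in 1 fit the adjusted p of gins1 was 0.164. The other GINS subunits had log2 fold changes of −1.35 (gins2), −0.997 (gins4) and −0.94 (gins3), and mcm10, which helps to start the helicase, one of −1.06. With the alternative minimum of a mean of 50 fragments gins2, gins3, gins4 and mcm10 dropped out, so their values rest on few fragments. The region of cdc45 overlaps ufd1l on the opposite strand. In all, 12 members overlap a gene on the opposite strand and 17 overlap any gene, and the sources do not say whether counting used the strand, so such genes may share fragments. Counting by strand would not separate pold2 from sf3a1, pole2 from ppp1r21 or rfc1 from rpl9, which overlap on the same strand. The part of these overlaps in the counts was not tested.

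All 9 polymerase and primase members fell in darkness (median −1.12). The call of pold1 was lost without a filter and with only the 2 groups compared. Leaving out library 2 or 3 at 25 µM, or control library 1 or 4, also lost it. DNA polymerase alpha makes the first stretch of each new strand together with primase, and its catalytic subunit pola1 (chromosome 24, 23840821 to 23932525) had 3.11, 1.76, 1.77 and 2.43 FPKM at 25 µM in darkness, against 5.72, 5.36, 4.89 and 6.43 FPKM in dark controls. No exposed library reached the control range (log2 fold change −1.30 ± 0.19, adjusted p = 0.000387). The subunit pold2 of polymerase delta, which copies the lagging strand (chromosome 8, 36570508 to 36579527), had 4.03, 2.33, 2.12 and 3.04 FPKM at 25 µM in darkness, against 6.92, 6.16, 5.94 and 5.73 FPKM in dark controls, with the same separation (−1.12 ± 0.17, adjusted p = 0.000714). The most abundant of the role, pold3 (chromosome 21, 21743599 to 21754630), another subunit of polymerase delta, changed least, with 10.8, 9.65, 8.68 and 7.84 FPKM at 25 µM in darkness, against 12.8, 12.96, 13.4 and 14.4 FPKM in dark controls (−0.54 ± 0.12, adjusted p = 0.00616). The largest fall of the role was that of pole2, a subunit of the leading-strand polymerase epsilon (−1.67 ± 0.26, adjusted p = 0.000722). Its catalytic subunit pole fell by 1.31 on the log2 scale at a level of only 0.297 ± 0.119 FPKM at 25 µM in darkness and 0.864 ± 0.226 FPKM in dark controls (SD, n = 4 each). The mean of pole at 25 µM was below the 0.5 FPKM of the filter, which it passed through the other dark groups. The call of pole held without a filter. Both pole2 and pole dropped out with the alternative minimum of a mean of 50 fragments.

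Of the 8 clamp, clamp loader and single-strand binding members 7 fell in darkness, with the smallest median of the larger roles (−0.71). The sliding clamp gene pcna (chromosome 10, 40821804 to 40826657), the most abundant of all members, had 76.8, 36.2, 40.4 and 51.98 FPKM at 25 µM in darkness, against 133, 119, 126 and 125 FPKM in dark controls. The highest exposed library stayed below the lowest control (log2 fold change −1.35 ± 0.19, adjusted p = 0.000332). Replication protein A coats single-stranded DNA, and its large subunit rpa1 (chromosome 15, 26498339 to 26538989) had 23.4, 17.2, 19.2 and 20.1 FPKM at 25 µM in darkness, against 33.1, 30.4, 29.5 and 32.7 FPKM in dark controls (−0.66 ± 0.10, adjusted p = 0.000515). The small subunit rpa3 (chromosome 19, 25465025 to 25467185) had 5.96, 3.13, 3.402 and 5.24 FPKM at 25 µM in darkness, against 9.58, 12.7, 13.6 and 10.1 FPKM in dark controls (−1.39 ± 0.23, adjusted p = 0.000978). Neither gene overlapped between the groups. The clamp loader members rfc4 (−0.75), rfc5 (−0.63) and rfc2 (−0.51) fell by less than pcna in log2 terms, and rfc1 did not pass (−0.41 ± 0.15, adjusted p = 0.0749). The call of rfc5 was lost without library 4 at 25 µM or control library 1.

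Both genes that finish Okazaki fragments fell in darkness. The flap endonuclease gene fen1 (chromosome 24, 11908480 to 11921184) had 4.16, 2.76, 2.44 and 3.36 FPKM at 25 µM in darkness, against 6.39, 6.52, 6.38 and 7.08 FPKM in dark controls, with no overlap (log2 fold change −1.05 ± 0.16, adjusted p = 0.000691). The DNA ligase gene lig1 fell by 1.39 on the log2 scale (adjusted p = 0.00126), to 0.587 ± 0.161 FPKM at 25 µM in darkness, against 1.72 ± 0.505 FPKM in dark controls (SD, n = 4 each). Cyclin E drives entry into S phase, and ccne2 (chromosome 16, 40575742 to 40586793) had 1.53, 0.988, 1.06 and 1.11 FPKM at 25 µM in darkness, against 2.84, 3.71, 3.35 and 2.42 FPKM in dark controls (−1.32 ± 0.22, adjusted p = 0.00117), again without overlap. The other cyclin E gene, ccne1, was not tested and had at most 0.538 FPKM in any dark library.

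All 8 nucleotide supply members fell in darkness, and their median (−1.41) was the lowest of the roles with more than 1 member. The salvage kinase gene dck (chromosome 21, 5974590 to 5986172) had 2.06, 0.741, 0.6799 and 0.468 FPKM at 25 µM in darkness, against 5.18, 5.38, 5.55 and 3.75 FPKM in dark controls. Library 1 at 25 µM was the highest of its group and still below every control, and the log2 fold change of −2.40 ± 0.33 (adjusted p = 0.000288) was the largest of all members. The gene did not meet the alternative minimum of a mean of 50 fragments, so these values rest on few fragments. The large subunit of ribonucleotide reductase, rrm1 (chromosome 21, 30772043 to 30787414), had 17.3, 10.8, 8.44 and 10.1 FPKM at 25 µM in darkness, against 32.01, 29.2, 27.1 and 31.1 FPKM in dark controls (−1.40 ± 0.18, adjusted p = 0.000224), without overlap. The thymidine kinase gene tk1 (−1.48), the thymidylate synthase gene tyms (−1.42) and the dihydrofolate reductase gene dhfr (−0.84), which recycles the folate that thymidylate synthase uses, fell with adjusted p of 0.0221 or below. The call of dhfr was lost without library 2 or 3 at 25 µM or control library 2. The smallest fall was that of dut, the dUTPase that keeps uracil out of DNA, with 5.61 ± 0.335 FPKM at 25 µM in darkness and 7.88 ± 1.14 FPKM in dark controls (SD, n = 4 each; −0.47 ± 0.11, adjusted p = 0.0084). In place of the listed ung, the uracil glycosylase gene, the tables name unga and ungb. These were looked up after the values were known: unga had a log2 fold change of −0.85 ± 0.25 (adjusted p = 0.0294) at 25 µM in darkness and ungb was not tested.

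**Figure D2:**
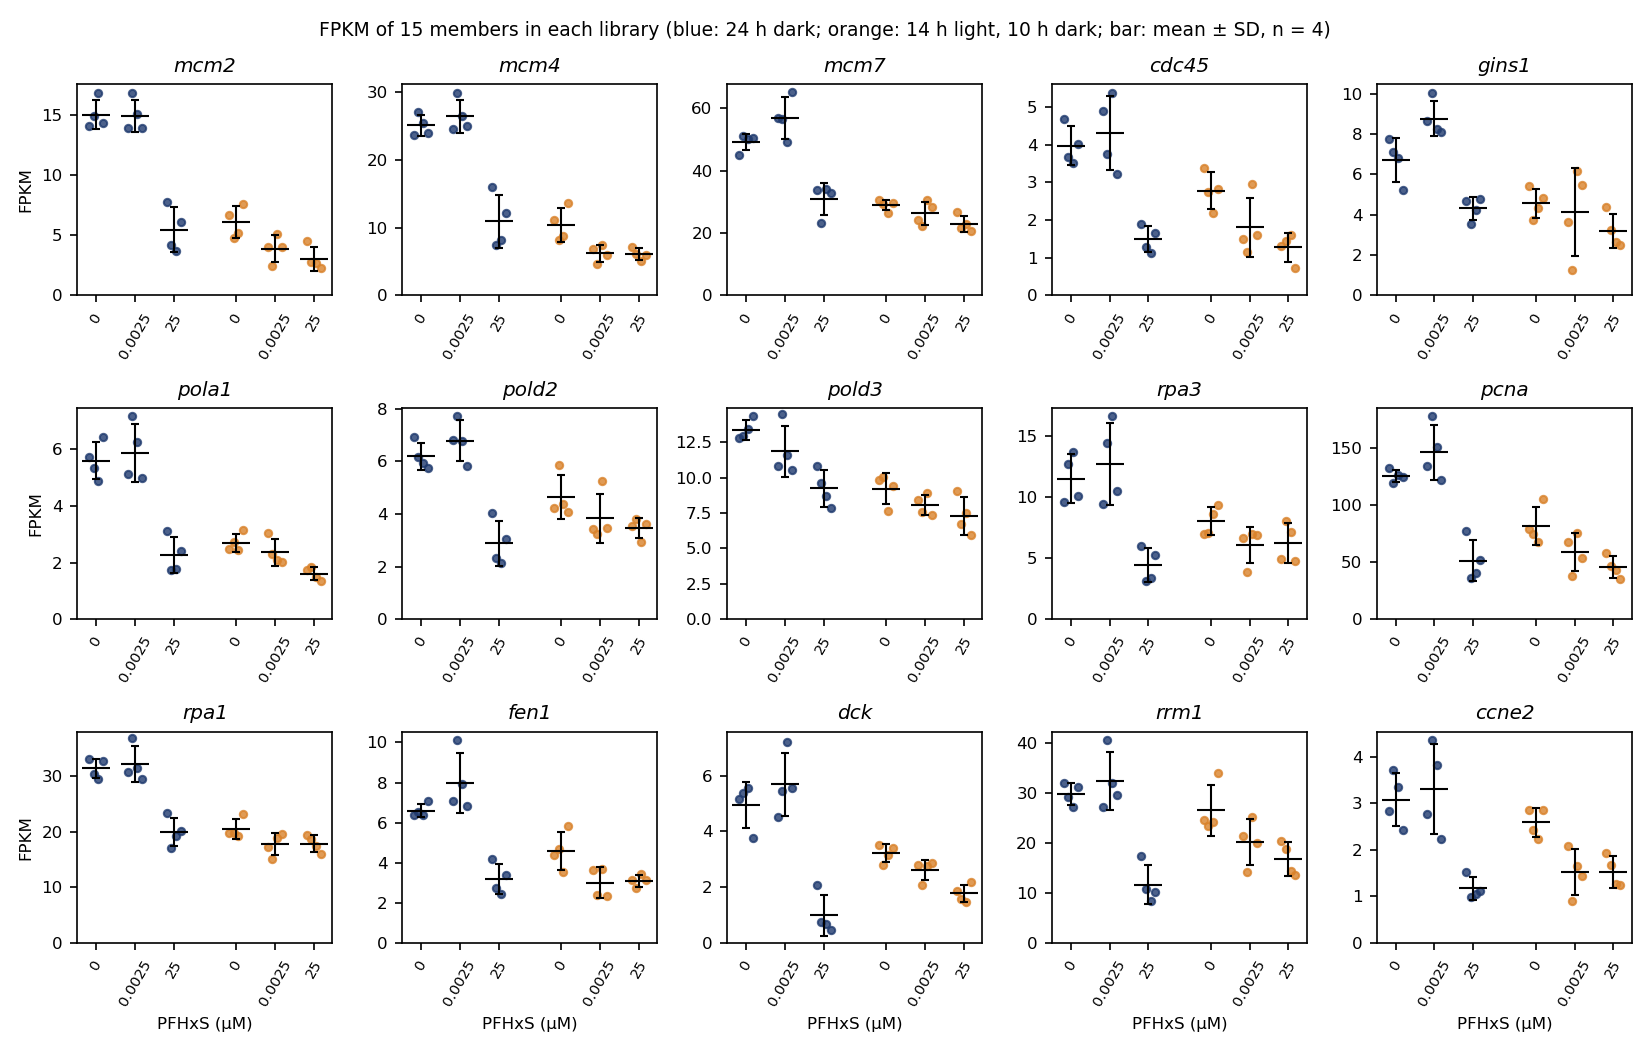
FPKM (y axis) of 15 members in each of the 24 libraries, by PFHxS dose (x axis) in darkness (blue, left) and under the cycle (orange, right), with mean ± SD (n = 4). In darkness the 4 libraries at 25 µM lie below all 4 controls in every panel. Under the cycle the 25 µM points lie closer to their controls.

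The 2 genes named rrm2 encode the small subunit of ribonucleotide reductase. The gene on chromosome 20 (29492469 to 29499426) had 2.75, 4.202, 3.48 and 3.27 FPKM at 25 µM in darkness, against 16.6, 9.94, 7.53 and 18.98 FPKM in dark controls (−1.84 ± 0.29, adjusted p = 0.000826). The gene on chromosome 19 (47564890 to 47571808) had 15.2, 6.41, 5.09 and 7.41 FPKM at 25 µM in darkness, against 14.7, 16.7, 20.99 and 12.9 FPKM in dark controls, and here library 1 at 25 µM lay within the control range (−1.04 ± 0.31, adjusted p = 0.0295). In darkness the chromosome 19 call was lost with the replicate block, and without library 2, 3 or 4 at 25 µM or control library 1, 2 or 3. With all 24 libraries in 1 fit the chromosome 20 call was lost. The chromosome 20 gene was scarce in every cycle group, with 0.102, 0.614, 0.0649 and 0.782 FPKM at 25 µM and 4.597, 0.841, 1.91 and 0.324 FPKM in cycle controls.

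The chromosome 20 gene gave a mean of 31.6% of the summed FPKM of the pair at 25 µM in darkness (15.4% to 40.7% over 4 libraries) and 44.1% in dark controls (26.4% to 59.5%), but 3.64% at 25 µM under the cycle (0.613% to 9.16%) and 8.18% in cycle controls (0.979% to 17.4%). Copies of similar sequence can share or lose reads in alignment. The sequences of the 2 genes were not compared here, so the values of each rrm2 gene are uncertain. The sum was 11.9 ± 4.09 FPKM at 25 µM in darkness and 29.6 ± 2.47 FPKM in dark controls, and 12.3 ± 4.24 FPKM at 25 µM under the cycle and 24.3 ± 6.83 FPKM in cycle controls (SD, n = 4 each).

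**Figure D3:**
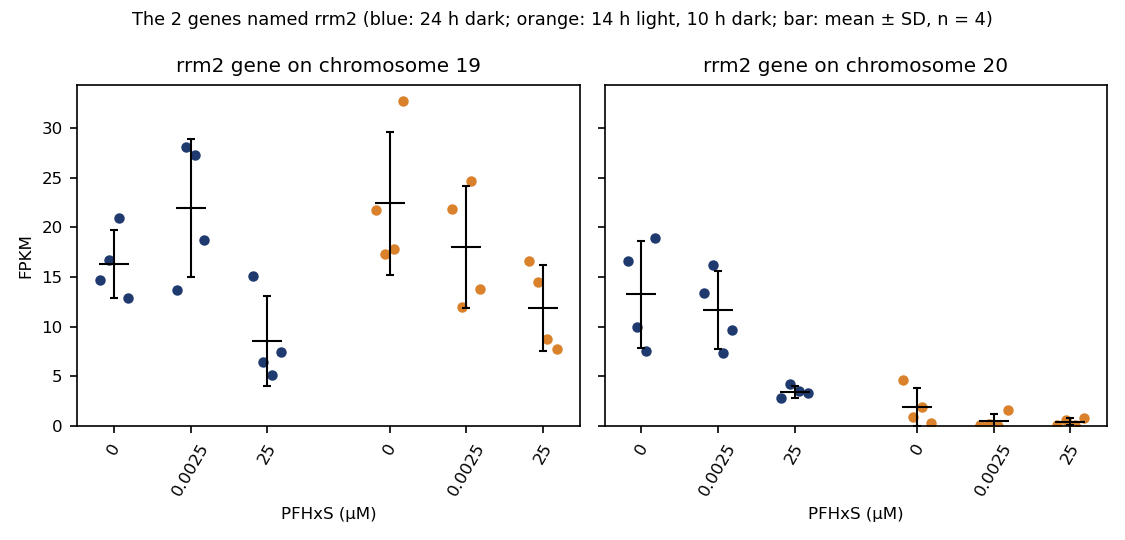
FPKM (y axis) of the 2 genes named rrm2 in each library, by PFHxS dose (x axis) in darkness (blue) and under the cycle (orange), with mean ± SD (n = 4). The gene on chromosome 20 lies between 2.75 and 18.98 FPKM in dark libraries and at 4.597 FPKM or below in cycle libraries, while the gene on chromosome 19 spans 5.09 to 28.1 FPKM in dark libraries and 7.75 to 32.8 FPKM in cycle libraries.

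Under the cycle of 14 h light and 10 h dark, 1 of 45 members tested fell at 25 µM and none rose. All 45 values lay below 0 with a median of −0.61, against −0.02 over all 18917 genes tested, and 28 members had an unadjusted p below 0.05, as did 3050 of all genes. Of all genes tested 0.629% were lower. In 14 members all 4 exposed libraries lay below all 4 cycle controls, which held for 4.65% of all genes tested. The median member kept 64.5% of its mean FPKM in cycle controls. The mitochondrially encoded share of fragments also moved with this group, with 5.78% to 5.99% at 25 µM and 4.88% to 5.42% in cycle controls, and its part in the result was not tested.

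The called member was dck, with 1.86, 1.59, 1.48 and 2.18 FPKM at 25 µM under the cycle, against 3.53, 2.79, 3.16 and 3.42 FPKM in cycle controls. The groups did not overlap (log2 fold change −0.84 ± 0.16, adjusted p = 0.0258). Here too dck did not meet the minimum of a mean of 50 fragments. The call was lost in 8 of 15 alternatives, with adjusted p from 0.0225 to 0.0929, among them leaving out libraries 2 or 3 at 25 µM or libraries 1, 3 or 4 of the controls. The members that came next did not pass. The polymerase subunit pola1 had 1.72, 1.85, 1.504 and 1.34 FPKM at 25 µM under the cycle, against 2.496, 2.72, 2.43 and 3.15 FPKM in cycle controls (−0.72 ± 0.17, adjusted p = 0.055). The ring subunit mcm4 had 7.097, 6.17, 5.06 and 5.99 FPKM at 25 µM under the cycle, against 11.1, 8.16, 8.74 and 13.6 FPKM in cycle controls (−0.75 ± 0.19, adjusted p = 0.0714). The subunit mcm2 had 4.49, 2.75, 2.73 and 2.25 FPKM at 25 µM under the cycle, against 6.68, 4.77, 5.19 and 7.64 FPKM in cycle controls (−0.99 ± 0.25, adjusted p = 0.0753). In each of these 3 genes all 4 exposed libraries were below all 4 controls, although the adjusted p missed the threshold.

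The same separation held for pcna, with 57.8, 46.6, 43.02 and 35.3 FPKM at 25 µM under the cycle, against 78.7, 74.8, 67.3 and 105 FPKM in cycle controls (−0.84 ± 0.21, adjusted p = 0.0767), and for cdc45, with 1.32, 1.45, 1.62 and 0.727 FPKM at 25 µM, against 3.38, 2.74, 2.196 and 2.82 FPKM in cycle controls (−1.10 ± 0.29, adjusted p = 0.083). It held too for rrm1, with 20.5, 18.7, 14.3 and 13.6 FPKM at 25 µM under the cycle, against 24.5, 23.3, 24.1 and 34.04 FPKM in cycle controls (−0.66 ± 0.19, adjusted p = 0.105). The groups overlapped for mcm7, with 26.6, 21.6, 22.8 and 20.7 FPKM at 25 µM, against 30.6, 29.2, 26.5 and 29.6 FPKM in cycle controls (−0.34 ± 0.11, adjusted p = 0.143). They also overlapped for pold3, with 9.07, 6.73, 7.48 and 5.95 FPKM at 25 µM under the cycle, against 9.85, 10.03, 7.64 and 9.39 FPKM in cycle controls (−0.34 ± 0.14), and for gins1, with 4.38, 3.23, 2.66 and 2.502 FPKM at 25 µM, against 5.41, 3.73, 4.32 and 4.82 FPKM in cycle controls (−0.52 ± 0.39). Neither passed.

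The Okazaki gene fen1 had 3.12, 2.72, 3.42 and 3.11 FPKM at 25 µM under the cycle, against 4.37, 4.67, 3.53 and 5.82 FPKM in cycle controls (−0.54 ± 0.19, adjusted p = 0.18), and ccne2 had 1.94, 1.68, 1.27 and 1.24 FPKM at 25 µM, against 2.85, 2.43, 2.24 and 2.87 FPKM in cycle controls (−0.74 ± 0.24, adjusted p = 0.143). In both the groups stood apart without passing the test. By role the medians under the cycle ran from −0.44 for clamp, loader and single-strand binding genes to −0.96 for helicase activation genes. With all 24 libraries in 1 fit 9 members were called lower under the cycle, with limma-voom on recovered fragments 5, with only the 2 groups in the fit 0, and without library 1 at 25 µM 8. Neither the 9 nor the 5 included dck. Leaving out libraries 2 or 3 at 25 µM, or 1 or 4 of the controls, left 0.

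The difference between the dark and the cycle libraries in the effect of 25 µM was tested directly. Photoperiod and library series cannot be told apart in this test either. The difference passed for 1 of 47 members, dck, whose log2 fold change in darkness was lower than under the cycle by 1.57 ± 0.38 (SE, limma interaction adjusted p = 0.0447). Of all 20145 genes tested, 0.189% differed in this direction and 0.973% in the other, 38 and 196 genes, and with values scaled to total fragments 108 and 121 genes. The call for dck held in 4 of 21 alternatives, with adjusted p from 0.000391 (without library 1 at 25 µM in darkness) to 0.104. The median difference over the members was −0.45, against 0.03 over all genes, with 43 of 47 values below 0 and 9 members at an unadjusted p below 0.05, as were 2679 of all 20145 genes.

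Next by adjusted p were 3 members that did not pass. For rpa1 the difference was −0.46 ± 0.14 (adjusted p = 0.113), and under the cycle its levels overlapped, with 19.4, 18.7, 17.4 and 16.03 FPKM at 25 µM, against 19.8, 19.7, 19.3 and 23.3 FPKM in cycle controls. For rpa3 it was −1.01 ± 0.33 (adjusted p = 0.148), with 4.94, 8.04, 7.16 and 4.76 FPKM at 25 µM under the cycle, against 7.001, 7.08, 8.63 and 9.34 FPKM in cycle controls. For pold2 it was −0.72 ± 0.25 (adjusted p = 0.178), with 3.54, 3.81, 2.94 and 3.603 FPKM at 25 µM under the cycle, against 4.24, 5.86, 4.39 and 4.06 FPKM in cycle controls, where the groups did not overlap. For the other members the larger count of calls in darkness is thus not shown to be a difference between the dark and the cycle libraries. For mcm2 the difference was −0.51 ± 0.33 and for pcna −0.52 ± 0.30 (SE).

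At 0.0025 µM in darkness 0 of 47 members were lower and 0 were higher by limma, and likewise by limma-voom, while 5 had an unadjusted p below 0.05, as did 1417 of all 19058 genes. Of all genes tested, 0.0105% were lower and 0.0105% were higher. The members' median was 0.13, with 39 values above 0. Over all 19058 genes the median was 0.001 and 9563 values lay above 0. In 5 members (gins1, gins3, gins4, orc3 and mcm3) all 4 libraries at 0.0025 µM lay above all 4 dark controls, which held for 2.19% of all genes tested. Without library 2 at 0.0025 µM the median was 0.06 and 14 of 47 values lay below 0, in place of 8. The clamp gene pcna had 134, 178, 151 and 122 FPKM at 0.0025 µM in darkness, and mcm2 had 13.9, 16.8, 15.1 and 13.9, both overlapping the dark controls given above. For dck the 4 values were 4.51, 5.46, 7.22 and 5.56 FPKM and for rrm1 27.1, 40.5, 31.97 and 29.6 FPKM, again overlapping the dark controls.

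Set against 0.0025 µM instead of the controls, 25 µM in darkness gave 44 of 47 members lower, with a median of −1.33 (9.42% of all genes tested were lower). In 43 members all 4 libraries at 25 µM lay below all 4 at 0.0025 µM, which held for 10.4% of all genes tested. The 2 contrasts share the 25 µM libraries. The values of the ring gene mcm5, for example, were 25.4 ± 1.31 FPKM at 0 µM, 27.2 ± 3.27 FPKM at 0.0025 µM and 8.49 ± 3.36 FPKM at 25 µM in darkness (SD, n = 4 each). Of the 50 members, those below the filter included, 49 had their lowest mean of the 3 dark groups at 25 µM. This order was not counted over all genes.

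Under the cycle, 0 of 45 members were lower and 0 were higher at 0.0025 µM by limma and by limma-voom, and 10 had an unadjusted p below 0.05, as did 1029 of all 18917 genes. Of all genes tested 0% were lower. All 45 values lay below 0, with a median of −0.35. Over all 18917 genes the median was −0.02 and 10055 values lay below 0. The 5 members in which all 4 libraries at 0.0025 µM lay below all 4 cycle controls were mcm3, mcm4, rpa3, tyms and ccne2. That separation held for 1.77% of all genes tested. Without library 2 at 0.0025 µM the median was −0.23 and 43 of 45 values lay below 0. For mcm4 the values were 6.89, 4.57, 7.45 and 5.901 FPKM at 0.0025 µM, close to those at 25 µM under the cycle and below the cycle controls (log2 fold change −0.73 ± 0.19, adjusted p = 0.882). For ccne2 they were 2.09, 0.899, 1.65 and 1.44 FPKM at 0.0025 µM (−0.78 ± 0.24, adjusted p = 0.882). For pcna they were 67.4, 37.96, 75.6 and 53.2 FPKM, which overlapped the cycle controls (−0.50 ± 0.21, adjusted p = 0.882).

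Between the doses under the cycle, 0 of 45 members were lower at 25 µM than at 0.0025 µM, with a median of −0.23 and 0.624% of all genes tested lower. At an unadjusted p below 0.05 there were 3 members by limma, against 2881 of all 18917 genes, and limma-voom also called 0. The median ran from −0.34 to −0.13 with 1 library left out, the ends being without library 1 and without library 4 at 25 µM. In 38 of 50 members, those below the filter included, the mean of the controls was above that at 0.0025 µM, which was above that at 25 µM. The same order was not counted over all genes. The difference between the photoperiods in the effect of 0.0025 µM passed for 0 of 47 members by limma, and for 0 by limma-voom. By limma 46 of the 47 values lay above 0 with a median of 0.56, and 12 had an unadjusted p below 0.05, as did 1608 of all 20145 genes. Over all genes the median was 0.01 and 10434 values lay above 0. Of all genes tested 0.00496% differed in this direction.

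Without PFHxS, 24 of 47 members were higher in dark controls than in cycle controls and none were lower. The median was 0.64, against −0.02 over all 20145 genes, of which 9.24% were higher and 10.8% were lower. In 26 members all 4 dark controls lay above all 4 cycle controls, which held for 11.9% of all genes tested. Photoperiod and library series cannot be told apart in this comparison, and the tables were scaled separately. Over all 24 libraries 47 members passed the filter, and within the cycle libraries 45 did, so some of the 47 needed the dark libraries to pass. Without a filter 19 of 50 members were higher in dark controls, and with the minimum of a mean of 50 fragments 20 of 35. Without dark control 4 or cycle control 3, 15 members were higher. With values scaled to total fragments, 29 members were higher, and over all genes 2514 were higher and 1545 lower in place of 1862 higher and 2185 lower.

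Licensing genes made up 10 of the 24. The ring gene mcm5 had 23.5, 26.3, 25.6 and 26.1 FPKM in dark controls, against 9.03, 6.25, 5.96 and 11.2 FPKM in cycle controls (1.68 ± 0.26, adjusted p = 8.08e-05). For mcm2 the log2 fold change was 1.32 ± 0.23 (adjusted p = 0.000348), with 15.04 ± 1.22 FPKM in dark controls and 6.07 ± 1.33 FPKM in cycle controls (SD, n = 4 each), and pola1 and rpa1 were also higher (1.03 and 0.62). The summed ring had 157.1 ± 6.97 FPKM in dark controls and 70.8 ± 12.1 FPKM in cycle controls (SD, n = 4 each). Of the 8 nucleotide supply genes 2 were higher, tyms (1.04 ± 0.31) and the chromosome 20 rrm2 gene (3.16 ± 0.73). The values of rrm1 (0.19), dut (−0.06), dck (0.60) and the chromosome 19 rrm2 gene (−0.43) did not pass. Of the 50 members, those below the filter included, 38 had a lower mean at 25 µM in darkness than in cycle controls. In 37 the mean at 25 µM was higher in darkness than under the cycle. These orders also rest on tables scaled apart and were not counted over all genes.

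The libraries of a group did not all carry the same shift. Taking for each library the median over 45 members of the log2 deviation from the controls of its photoperiod, the 25 µM libraries in darkness stood at −0.65, −1.35, −1.44 and −1.04, against −0.01 to 0.04 in dark controls. Under the cycle the 25 µM libraries stood at −0.32, −0.48, −0.67 and −0.94, and the cycle controls at 0.08, −0.17, −0.17 and 0.23. Library 1 at 25 µM in darkness was the highest of its group for 35 of the 45 members, yet all 45 were below the control mean there. Without that library 47 of 47 members were lower and the median was −1.29. Control library 4 under the cycle was the highest of its group for 29 members, and library 4 at 25 µM under the cycle the lowest of its group for 31.

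**Figure D4:**
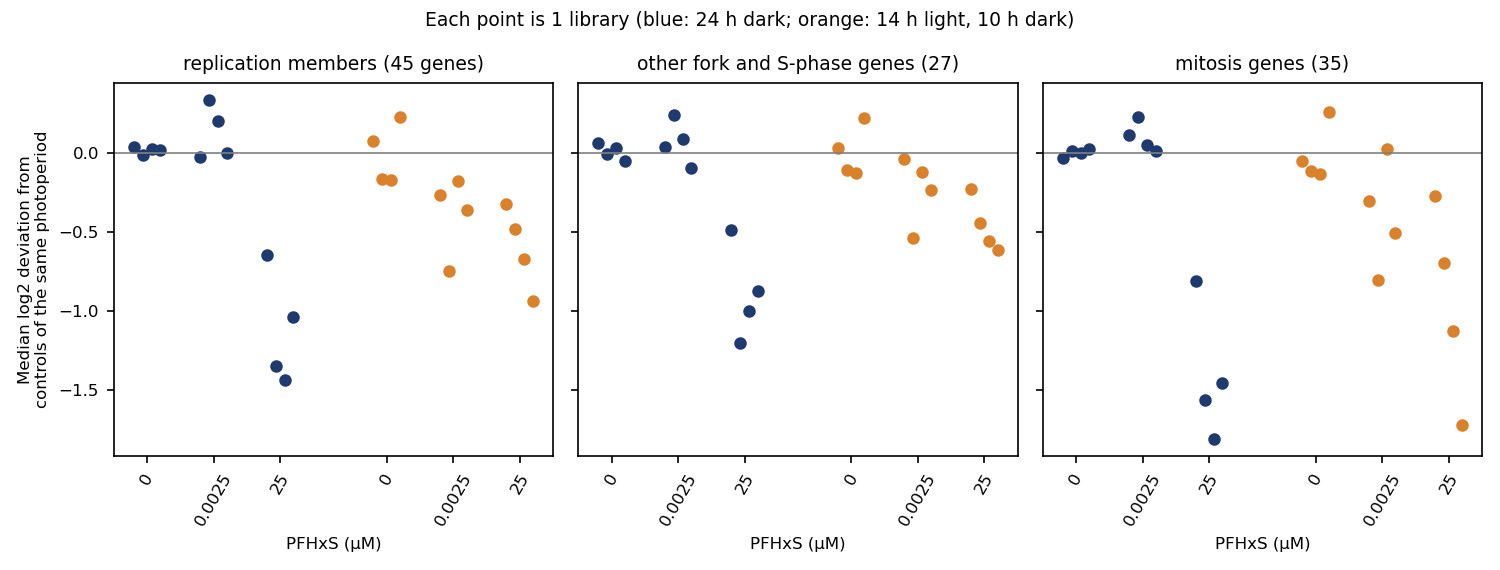
Median log2 deviation from the controls of the same photoperiod (y axis) for each library, by PFHxS dose (x axis), over 45 replication members (left), 27 other fork and S-phase genes (middle) and 35 mitosis genes (right), in darkness (blue) and under the cycle (orange). The dark 25 µM libraries lie at −0.65 or below for the members, with library 1 nearest to 0 in all 3 panels.

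Genes of neighbouring cell cycle steps also fell at 25 µM in darkness, where 9.6% of all genes tested were lower and 12.2% higher. Of 31 other fork and S-phase chromatin genes tested, 21 fell and none rose at 25 µM in darkness (median −0.98). They included the histone chaperone subunit chaf1b, with 1.78 ± 0.543 FPKM at 25 µM and 5.599 ± 0.519 FPKM in dark controls (−1.64 ± 0.18, adjusted p = 6.18e-05), the maintenance methyltransferase dnmt1 (−1.15 ± 0.14, adjusted p = 0.000147) and the histone chaperone asf1ba (−1.03 ± 0.14, adjusted p = 0.000232). The licensing inhibitor gmnn did not pass (−0.16 ± 0.36, adjusted p = 0.797). Of 35 mitosis genes 34 fell and none rose (median −1.46), among them the spindle factor tpx2 (−1.38 ± 0.14, adjusted p = 2.67e-05), the ubiquitin ligase partner ube2c (−1.87 ± 0.19, adjusted p = 3.26e-05) and the S and G2 cyclin ccna2 (−1.78 ± 0.20, adjusted p = 7e-05).

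Of 29 E2F, RB and checkpoint regulators 13 fell and none rose at 25 µM in darkness, beside 9.6% lower and 12.2% higher of all genes tested. The transcription factor e2f1, which activates many replication genes, had 0.4502, 0.485, 0.593 and 0.572 FPKM at 25 µM in darkness, against 1.96, 2.98, 1.53 and 2.35 FPKM in dark controls, without overlap (−1.85 ± 0.27, adjusted p = 0.00041). The D cyclin ccnd1 (−0.44 ± 0.07, adjusted p = 0.000568) and the checkpoint kinase chek1 (−1.64 ± 0.27, adjusted p = 0.00102) fell too.

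Of 42 other nucleotide metabolism genes tested at 25 µM in darkness, 10 were lower, 5 were higher and 27 did not pass (median −0.08). Among all genes tested 9.6% were lower and 12.2% higher, so the count of higher genes lay near the share over all genes. The purine nucleoside phosphorylases pnp4b (0.95 ± 0.11, adjusted p = 8.72e-05) and pnp5b (1.17 ± 0.14, adjusted p = 0.000122), which break nucleosides down, and the CTP synthase ctps1a (0.50 ± 0.09, adjusted p = 0.00228) rose, while pnp4a fell (−1.44 ± 0.24, adjusted p = 0.000962). The subunit rrm2b, which serves ribonucleotide reductase outside S phase in mammals, had 3.63, 3.99, 5.73 and 4.93 FPKM at 25 µM in darkness, against 6.797, 4.36, 3.36 and 3.31 FPKM in dark controls, with overlap (0.08 ± 0.26, adjusted p = 0.871).

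Under the cycle at 25 µM, 1 of 29 other fork genes fell, asf1ba (−0.98 ± 0.21, adjusted p = 0.0394), and 3 of 35 mitosis genes fell, anln (−1.14 ± 0.20, adjusted p = 0.0171), ccnb2 (−1.29 ± 0.27, adjusted p = 0.0388) and top2a (−1.10 ± 0.25, adjusted p = 0.0495). All 35 mitosis values lay below 0 (median −0.94). Among all 18917 genes tested 119 were called lower and 209 higher, and 10133 values lay below 0. None of 28 E2F, RB and checkpoint regulators passed, with e2f1 at −0.52 ± 0.42, and gmnn stood at 0.02 ± 0.35. Of 42 other nucleotide genes 2 rose, pnp4b (0.76 ± 0.15, adjusted p = 0.0302) and pnp5b (0.67 ± 0.15, adjusted p = 0.0457), and none fell. The value of rrm2b was 0.42 ± 0.53, with 11.7 FPKM in control library 3 and 2.09 to 4.40 FPKM in the other cycle controls.

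Between the controls, where 9.24% of all genes tested were higher in darkness and 10.8% lower, the neighbouring lists parted. Of 33 other fork genes 10 were higher and 1 was lower in dark controls than in cycle controls (median 0.47), with uhrf1, which recruits the maintenance methyltransferase, at 1.54 ± 0.19 (adjusted p = 6.12e-06), msh6 at 0.99 ± 0.15 (adjusted p = 8.68e-05), dnmt1 at 0.90 ± 0.15 (adjusted p = 0.000269) and, lower, rnaseh2b at −2.36 ± 0.75 (adjusted p = 0.0292). Of 35 mitosis genes none were higher and 1 was lower, anln (−0.63 ± 0.18, adjusted p = 0.0174), and 33 of the 35 values lay below 0 (median −0.40). The replication members thus stood higher in dark controls while the mitosis genes did not, and the difference between the lists was not tested. The factor e2f1 was higher in dark controls (1.35 ± 0.35, adjusted p = 0.00866) and was among 7 of 30 regulators called, all higher. Of 42 other nucleotide genes 15 were higher and 4 were lower in dark controls.

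**Figure D5:**
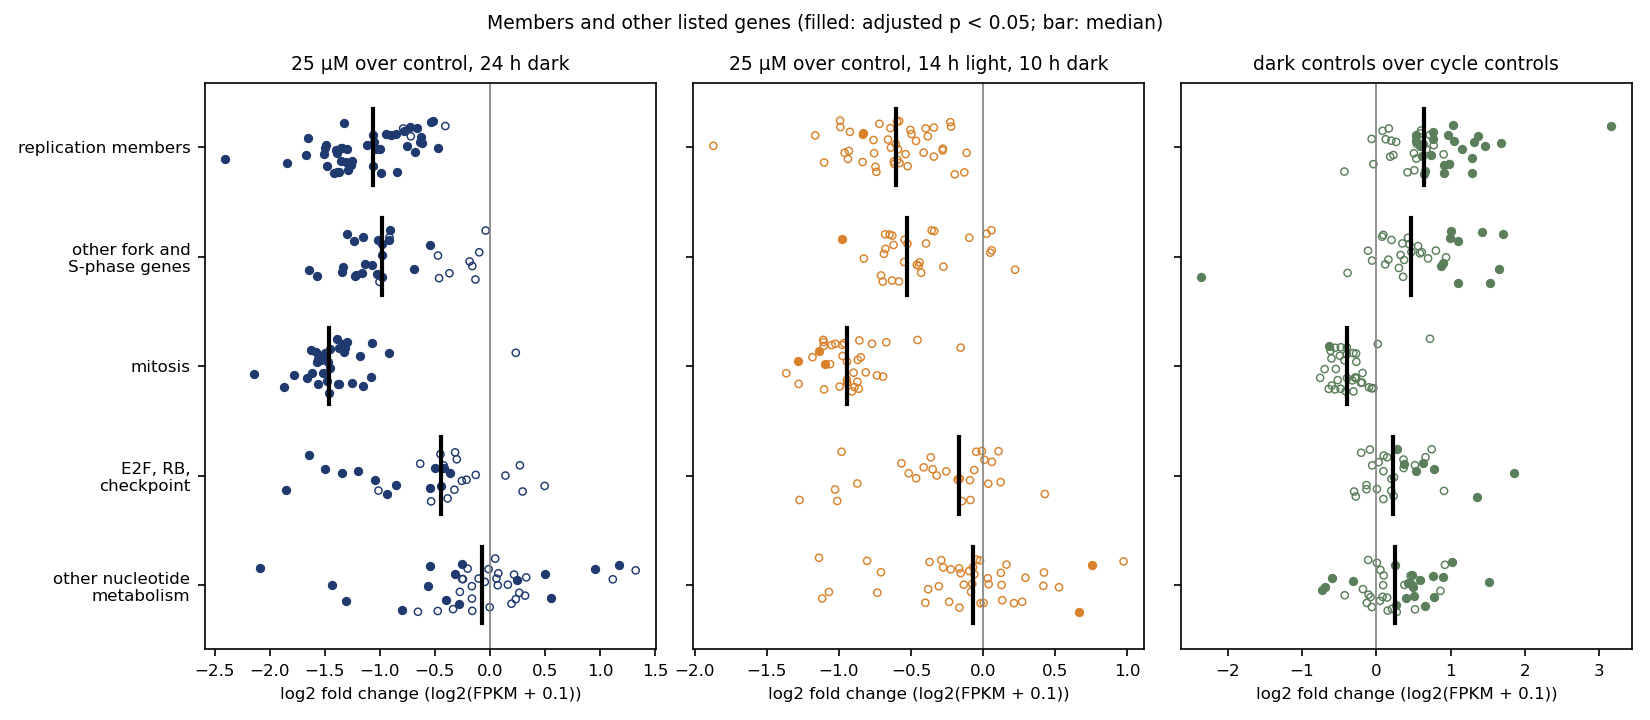
Log2 fold changes (x axis, ranges differ between panels) of the replication members and of 4 lists of neighbouring genes (y axis), at 25 µM over control in darkness (left) and under the cycle (middle), and in dark controls over cycle controls (right). Filled points have an adjusted p below 0.05 and bars mark medians: the members' medians are −1.07, −0.61 and 0.64, those of the mitosis genes −1.46, −0.94 and −0.40.

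Markers of tissues were read beside these results. At 25 µM in darkness 12 of 56 marker genes tested over 12 lists fell and 1 rose, while 9.6% of all genes tested were lower and 12.2% higher. The summed FPKM of 4 lists did not overlap between the groups. Thymus and lymphoid markers had 3.09 to 4.76 at 25 µM in darkness and 5.13 to 6.74 in dark controls, with coro1a, cd4-1 and lck listed at 0 in both groups. Epidermis markers had 778 to 1764 at 25 µM in darkness and 1859 to 2831 in dark controls. Neuron markers had 372 to 449 at 25 µM in darkness and 479 to 506 in dark controls, and lens and photoreceptor markers 4636 to 4986 at 25 µM and 5006 to 5412 in dark controls. At 0.0025 µM in darkness the neuron sums (451 to 477) also lay below all dark controls, while those of the other 11 lists overlapped them. Gene by gene at 25 µM in darkness, 2 of 4 thymus and lymphoid markers tested were called lower and 1 of 4 epidermis markers. So were 2 of 3 neuron markers and 1 of 5 lens and photoreceptor markers.

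At 25 µM in darkness the sums of the other 8 lists overlapped those of dark controls. Markers of neural progenitors and radial glia had 294 to 362 at 25 µM in darkness and 352 to 432 in dark controls, and those of the retinal margin and retinal progenitors 29.8 to 35.6 at 25 µM and 34.1 to 37.9 in dark controls. Exocrine pancreas markers had 2809 to 4192 at 25 µM in darkness and 3847 to 4493 in dark controls, liver markers 753 to 1663 at 25 µM and 1184 to 1297 in dark controls, and intestine markers 341 to 460.3 at 25 µM and 386 to 422 in dark controls. Blood markers had 133 to 294 at 25 µM in darkness and 145 to 244 in dark controls (alas2 listed at 0 in both), germ cell markers 3.33 to 5.10 at 25 µM and 3.54 to 4.59 in dark controls, and muscle markers 14904 to 16775 at 25 µM and 16022 to 16932 in dark controls. The muscle marker mylpfa was listed at 0 in all dark controls but not in all libraries at 25 µM, and 3 of the 4 muscle markers were tested. Of 6 retinal margin and progenitor genes 1 fell, with 4 values below 0, and of 11 neural progenitor genes 2 fell, with 7 values below 0. These were atoh7 (−1.52 ± 0.34, adjusted p = 0.00724) of the retinal list, and fabp7a (−0.70 ± 0.13) and dla (−0.63 ± 0.12) of the neural list. Of 5 intestine markers 1 was lower, as was 1 of 3 exocrine pancreas markers, and of 5 liver markers 1 was lower and 1 higher. No blood, germ cell or muscle marker was called. The part of these tissues in the members' fall was not tested.

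Under the cycle at 25 µM, 1 of 57 marker genes was lower (myb, −0.63 ± 0.14, adjusted p = 0.0413) and 1 was higher (fabp10a, 0.63 ± 0.13, adjusted p = 0.0379). Of all 18917 genes tested, 119 were lower and 209 higher. The thymus and lymphoid list was the only one of 12 whose sums stood apart, with 3.90 to 5.10 FPKM at 25 µM and 5.90 to 6.87 FPKM in cycle controls. Between the controls 9 of 60 marker genes were lower and 7 were higher in darkness, while 10.8% of all genes tested were lower and 9.24% higher. Sums were higher in dark controls for neural progenitor, epidermis and neuron markers and lower for muscle and pancreas markers, and their part in the members' difference was not tested.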

How the data were processed

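The 24 libraries were grouped by the dose and photoperiod in their titles; 1 label describes darkness for all, and the titles were followed. The authors deposited FPKM values per gene in 2 tables, 1 per photoperiod, and these were scaled separately. Per the submitters' processing notes, HISAT2 2.0.5 and featureCounts 1.5.0-p3 were used; coordinates are those of the tables, whose genome build is not given in the sources used here. The sources do not state whether counting used strand. Deposited FPKM times gene length, scaled by 1 factor per library found from the low values, gave whole fragments for 100% of values (tolerance 0.001). The libraries held 8.44 M to 18.5 M fragments, which limits the precision of genes below 1 FPKM.

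Differences were computed here with limma 3.58.1 in R 4.3.3, with a mean-variance trend, on log2(FPKM + 0.1). Genes needed 0.5 FPKM in 4 fitted libraries. The Benjamini-Hochberg adjustment ran over all genes tested, with a threshold of 0.05. Contrasts within a photoperiod used its 12 libraries, and contrasts between photoperiods used all 24. The procedure was also run on simulated fragments, drawn independently for each gene with the same dispersion for every gene. Known changes were placed only in genes with a mean of at least 1 FPKM. The simulation held no shifts shared by many genes of a library, so it does not cover such shifts or scarcer genes. Alternatives were a pseudocount of 1, no filter, a mean of at least 50 fragments, limma-voom on recovered fragments, scaling to total fragments, a replicate block, other sets of libraries and leaving out each library. Values in every library are given for the most abundant member of each role, the member with the smallest adjusted p of each role at 25 µM in darkness, and the 4 members with the smallest adjusted p at 25 µM under the cycle and for the dark minus cycle difference, 15 in all, and for mcm5 and both rrm2 genes, chosen after their values were seen. From each other list the 3 genes with the smallest adjusted p were named, with up to 3 called against the list's direction and e2f1, rrm2b and gmnn. 1 further list is not reported here. The members and lists were chosen with earlier results of these data known. No promoter or protein sequence was used here.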

Additional observations from a re-analysis of the deposited data

Results flagged for a closer look

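Dixon's test was run on 90 groups of 4 libraries for the members given with every library and on 6 groups of library summaries, and chance marks about 1 group in 20. In 7 groups, all of them of member values, 1 library stood far from the other 3. Control library 4 under the cycle was high for rrm1, at 34.0 FPKM, and for rpa1, at 23.3 FPKM. Library 2 at 0.0025 µM under the cycle was low for dck, at 2.09 FPKM, and for rpa3, at 3.90 FPKM, and library 3 of the same group stood apart for pold2, at 5.24 FPKM. For mcm7, library 2 at 25 µM in darkness was low, at 23.2 FPKM, and control library 1 in darkness was low, at 45.1 FPKM.

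The effect of 25 µM on dck differed between the dark and the cycle libraries in the main fit, where photoperiod and library series cannot be told apart. The log2 fold change in darkness minus that under the cycle was −1.57 ± 0.38 (SE, limma interaction adjusted p = 0.0447), with the 25 µM libraries below all controls in both photoperiods, and 17 of 21 alternatives lost the call.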

How the results depend on the processing

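No value changed direction past a threshold under any alternative run. In darkness at 25 µM, 42 to 46 members were lower under the alternatives that kept all libraries (35 of 36 tested with the minimum of 50 fragments) and 40 to 47 with 1 library left out. The median of −1.07 became −0.79 with a pseudocount of 1 and ran from −1.29 to −0.99 with 1 library left out. Against 0.0025 µM it became −1.01 with a pseudocount of 1. Under the cycle the 1 member lower was dck. The count became 5 with limma-voom, 0 with only the 2 groups in the fit and 9 with all 24 libraries in 1 fit. It ran from 0 to 8 with 1 library left out. Neither the 5 nor the 9 included dck. The 1 member called with the minimum of 50 fragments was pola1, and that without control library 3 was rfc5. The 1 member whose effect differed between photoperiods became 0 without a filter, 0 with the minimum of 50 fragments (which dck did not meet) and 0 with limma-voom, and 0 to 3 with 1 library left out, the 3 being reached without library 1 at 25 µM in darkness. The 24 members higher in dark controls became 19 to 30 with all libraries kept and 15 to 24 with 1 library left out, the 15 being without dark control 4 or cycle control 3. The cause of these shifts was not tested.

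With the replicate block, 42 members were lower at 25 µM in darkness, 1 under the cycle, 0 differed in effect between the photoperiods and 22 were higher in dark controls. Libraries with the same number did not deviate together (r from −0.113 to 0.0209 in darkness and from −0.136 to 0.118 under the cycle, 12 pairs each). The numbers are not known to pair libraries, and these correlations cannot show whether they do. Of 807 values of single genes under alternatives, 26 lost and 16 gained a call. Members under about 1 FPKM rest on few fragments.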
